A study of Homo sapiens with 6 samples.

Results

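Of the 21293 genes in the deposited RNA-seq table of H2087-LCC cells 10 were taken by their symbols as a set of WNT ligands and WNT inhibitors with a receptor and a feedback target: DKK1, DKK3, SFRP1, WNT5A, WNT5B, WNT7A, WNT7B, WNT9A, AXIN2 and LGR4. H2087-LCC is a dormant metastatic derivative of the stage I lung adenocarcinoma (LUAD) line H2087, selected in animals as a latency competent population, so it is 1 cell population and not a set of tumours. One group was given SB505124 (SB), which blocks the kinase of the type I TGFβ receptor, over 3 days, another TGFβ over 3 days and the last TGFβ over 7 days, with 2 libraries in each group. All 6 libraries came from this population, and SB was sequenced at 3 days alone, so that 7 days of TGFβ and a longer time in culture cannot be told apart. No group was without both SB and TGFβ. In each difference from SB, the effect of the inhibitor and that of added TGFβ thus cannot be told apart. The study's own text describes paired libraries as technical replicates, so SDs and p-values here may cover the spread between preparations and not between cultures.

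WNT proteins are lipid-modified secreted ligands that bind Frizzled (FZD) receptors. With the co-receptors LRP5 and LRP6 they keep β-catenin from being degraded, so that it joins TCF/LEF factors on target genes, and with receptors such as ROR1 and ROR2 some of them act on the cytoskeleton and on cell polarity without β-catenin. Secreted inhibitors act outside the cell, either by holding the ligand, as SFRP1 does, or by blocking LRP5 and LRP6, as DKK1 does, and in the lung this pathway is known for its part in branching, progenitor maintenance and repair. DKK1 is of interest in this cell model because it has been tied to the dormancy of latency competent cells. The comparisons asked how the mRNAs of these genes differed between cells with the TGFβ receptor inhibited and cells given TGFβ, and between the shorter and the longer treatment.

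The sequences just upstream of the annotated starts of DKK1, WNT5A and WNT5B are printed to show the inhibitor with the highest level per length and the related pair of WNT5 ligands, all higher at both times of TGFβ than in SB. WNT9A was higher at both times too, and its window is described and not printed. Each line gives the 250 bases before a start, 5′ to 3′ on the gene's own strand, from RefSeq on GRCh38.p14, a later build than the hg19 to which the reads were mapped. RefSeq windows were matched for 6 of the 10 genes, with 8 windows in all. Capitals mark matches, on either strand, to the letters CTTTGAT or CTTTGAA (TCF/LEF), TGACTCA (AP-1), GTCTG (SMAD) and CATTCC (TEAD, read as GGAATG on the other strand).

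DKK1, chr10:52314031-52314280, plus strand: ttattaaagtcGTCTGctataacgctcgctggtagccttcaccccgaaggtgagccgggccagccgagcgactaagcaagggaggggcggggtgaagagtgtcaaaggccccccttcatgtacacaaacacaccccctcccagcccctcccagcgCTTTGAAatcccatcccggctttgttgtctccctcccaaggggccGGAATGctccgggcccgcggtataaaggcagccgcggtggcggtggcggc
WNT5A, first start, chr3:55487307-55487556, minus strand: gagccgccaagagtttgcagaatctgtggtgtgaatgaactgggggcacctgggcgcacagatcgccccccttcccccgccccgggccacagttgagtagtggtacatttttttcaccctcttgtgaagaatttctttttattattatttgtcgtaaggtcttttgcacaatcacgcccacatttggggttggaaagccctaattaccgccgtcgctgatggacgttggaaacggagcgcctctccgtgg
WNT5A, second start, chr3:55481399-55481648, minus strand: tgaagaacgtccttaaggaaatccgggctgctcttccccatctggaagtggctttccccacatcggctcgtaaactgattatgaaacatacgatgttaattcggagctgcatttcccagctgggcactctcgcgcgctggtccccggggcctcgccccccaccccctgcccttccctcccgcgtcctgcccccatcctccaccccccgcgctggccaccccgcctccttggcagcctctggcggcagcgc
WNT5B, first start, chr12:1616806-1617055, plus strand: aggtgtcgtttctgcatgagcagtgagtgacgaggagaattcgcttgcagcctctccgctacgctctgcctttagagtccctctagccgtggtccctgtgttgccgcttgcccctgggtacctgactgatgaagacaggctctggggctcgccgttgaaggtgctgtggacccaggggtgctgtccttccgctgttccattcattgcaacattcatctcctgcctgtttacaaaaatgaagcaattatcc
WNT5B, second start, chr12:1628981-1629230, plus strand: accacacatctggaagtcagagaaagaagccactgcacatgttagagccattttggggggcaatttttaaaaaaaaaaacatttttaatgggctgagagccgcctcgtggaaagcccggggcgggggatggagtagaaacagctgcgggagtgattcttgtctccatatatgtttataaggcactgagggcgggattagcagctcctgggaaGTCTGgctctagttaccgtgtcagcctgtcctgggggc

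The DKK1 window held CTTTGAA with its first base 95 bases before the start, CATTCC on the other strand at 50 bases and GTCTG at 239 bases. The second WNT5B window held GTCTG at 38 bases, and both WNT5A windows and the first WNT5B window held none of the 5 motifs. Of 35116 windows of the same length, 5.94% held CTTTGAT or CTTTGAA, 4.2% TGACTCA, 11.9% CATTCC and 38.0% GTCTG. The windows of WNT7A, WNT9A and LGR4 also held none. A match describes letters in a window and is not a measured site.

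The values are library-size normalized read counts, whole numbers as deposited. They summed to between 34306283 and 36340734 per library, and from the low values 1 read was estimated to be worth 0.896 to 1.10 normalized counts. Groups were compared on log2(normalized count + 1) with limma over the 14395 genes whose mean was 10 or more, with Benjamini-Hochberg adjustment at 0.05, and each adjusted p below comes from that fit. An exact permutation test of 2 libraries against 2 has 0.333 as its smallest two-sided p and so could not reach the threshold. The labels were checked with SMAD7, a gene that TGFβ signaling switches on, which had normalized counts of 112 and 79 in SB, 916 and 799 at 3 days and 854 and 747 at 7 days. Epithelial keratins were present in every library. KRT8, between 33341 and 42692, and KRT19, between 3785 and 6809, did not pass the threshold relative to SB at either time. KRT18, between 31757 and 50793, was lower than in SB at both times (log2 differences -0.29 and -0.56), as were CDH1 and EPCAM. CDH1 (E-cadherin) had 371 and 635 in SB, 28 and 24 at 3 days and 10 and 9 at 7 days, and EPCAM had 10180 and 9106, then 6610 and 5994, then 2988 and 3277. Of the lung progenitor factors, NKX2-1 had 2784 and 2908 in SB and 712 to 857 with TGFβ. SOX2 had 1552 and 2658 in SB, 626 and 569 at 3 days and 942 and 1049 at 7 days. SOX9 went the other way at 7 days, with 1835 and 2305 in SB, 1233 and 1365 at 3 days and 2591 and 2769 at 7 days. None of 5 leukocyte markers had a mean of 10. Over 5 fibroblast markers the summed normalized count was 210 to 260 in SB, 287 to 358 at 3 days and 465 to 599 at 7 days, nearly all of it COL1A1, with LUM at 0 and DCN at 0 or 1. Over 4 endothelial markers it was 160 to 294 in SB, 93 to 109 at 3 days and 109 to 132 at 7 days, most of it KDR and PECAM1. The part of these marker changes in the results was not tested. In bulk libraries a change in the share of cells that use a gene and a change in mRNA per cell cannot be told apart.

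TGFβ-treated cells had more mRNA for DKK1 and for the ligands WNT5A, WNT5B and WNT9A than SB-treated cells at both times, and less for the receptor LGR4. DKK3 was higher than in SB at 3 days and lower at 7 days, WNT7B was lower and AXIN2 higher at 7 days, and SFRP1 and WNT7A were at or near 0 in all 6 libraries. Of the 10 genes, 8 passed the filter on low values, among them WNT5B, which passed it through the TGFβ libraries alone and so had to differ from SB. At 3 days of TGFβ, 6 differed from SB, 5 higher and 1 lower, where 29.0% of all genes tested differed (14.9% higher and 14.0% lower). With libraries scaled to equal totals, the split over all genes at 3 days moved from 2149 higher and 2021 lower to 1819 higher and 2550 lower, while that of the set stayed at 5 and 1. At 7 days each of the 8 differed from SB, 5 higher and 3 lower, where 54.5% of all genes did (27.7% higher and 26.9% lower). Between 7 days and 3 days 6 differed, 4 higher and 2 lower at 7 days, where 33.2% of all genes did (17.0% higher and 16.2% lower). The 10 genes were chosen with earlier results of these data known, so their shares beside those of all genes are a description and not a test. The 2 comparisons with SB share the SB libraries, so that their results are not independent of each other. The median log2 difference of the 8 genes was 0.94 at 3 days and 1.94 at 7 days relative to SB, beside -0.0215 and -8e-04 for all genes tested. These medians hold WNT5B, which had no read in SB, at its fitted value. Without WNT5B the middle value was that of DKK1, 0.50 at 3 days and 1.44 at 7 days.

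**Figure D1:**
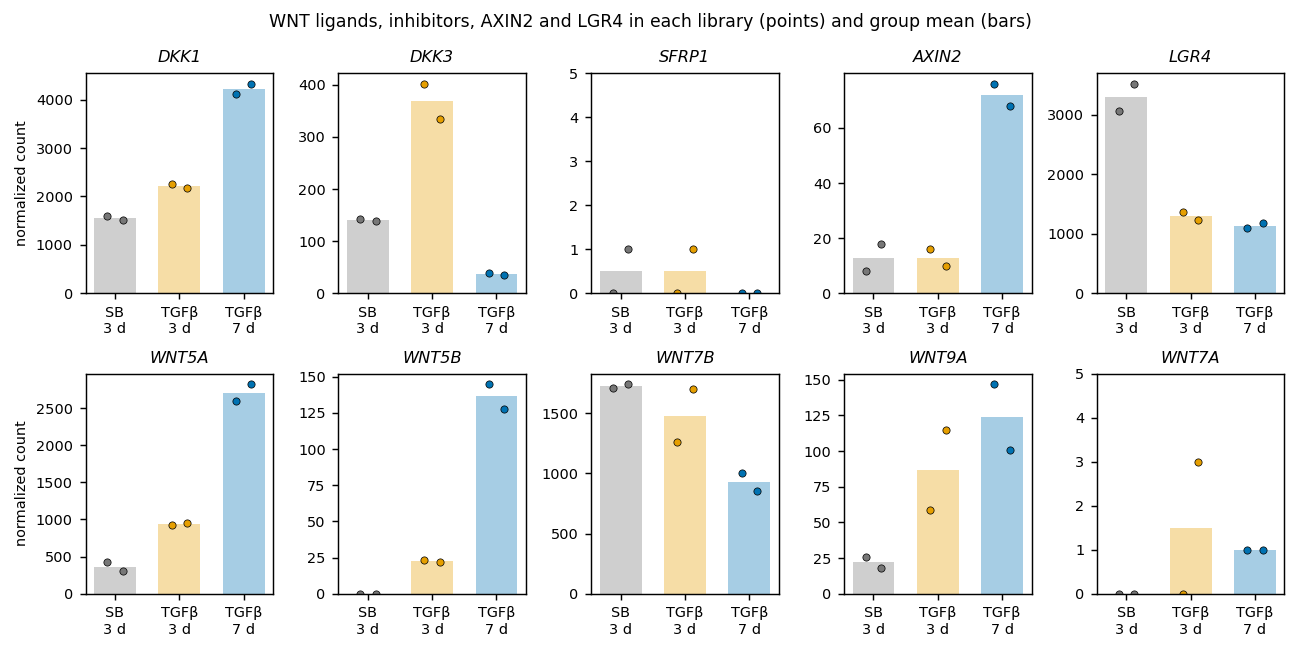
Normalized count (vertical axis, from 0, a scale of its own for each gene) of the 10 genes in the SB group and in the groups given TGFβ, at the days marked under each bar. Points are the 2 libraries of a group and bars their mean. DKK1, WNT5A and WNT5B step up from group to group, LGR4 steps down at 3 days, DKK3 is highest at 3 days and lowest at 7 days, and SFRP1 and WNT7A do not pass 3.

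DKK1, the secreted inhibitor that binds LRP5 and LRP6, lies on chromosome 10 of GRCh37 from 54074041 to 54077802 on the plus strand. Its normalized count was 1597 and 1515 in SB, 2249 and 2165 after 3 days of TGFβ and 4115 and 4327 after 7 days. The 3 groups did not overlap, and the highest was 7 days. Such a separation is common in these data, as 63.2% of all genes tested did not overlap between SB and 3 days, 77.5% between SB and 7 days and 69.1% between 3 days and 7 days. The mean rose from 1556 ± 58.0 (SD, n = 2) in SB to 2207 ± 59.4 at 3 days, a ratio of 1.42, and to 4221 ± 149.9 at 7 days, a ratio of 2.71. The log2 difference from SB was 0.50 at 3 days (standard error 0.09, limma adjusted p = 0.00113) and 1.44 at 7 days (adjusted p = 1.04e-07). Between the 2 times of TGFβ the log2 difference was 0.94 (adjusted p = 3.22e-05), a ratio of 1.91. The exons of DKK1 share 10.2% of their bases with PRKG1-AS1 on the other strand, which had 0 to 4 normalized counts in any library. The kit does not mark strand.

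DKK3 belongs to the same dickkopf family but is a divergent member that does not act on LRP5 and LRP6 in the way DKK1 does. It lies on chromosome 11 from 11977754 to 12031316 on the minus strand. The normalized count was 142 and 139 in SB, 402 and 334 at 3 days and 39 and 36 at 7 days. Both 3-day libraries were above both SB libraries, and both 7-day libraries were below all the others. The means were 140.5 ± 2.12 in SB, 368 ± 48.1 at 3 days and 37.5 ± 2.12 at 7 days (SD, n = 2). On the log2 scale DKK3 was higher than in SB by 1.38 at 3 days (standard error 0.18, limma adjusted p = 0.000148) and lower at 7 days, with a difference of -1.88 (adjusted p = 5.58e-06). From 3 days to 7 days the log2 difference was -3.26 (adjusted p = 1.07e-06), which is 9.55-fold lower on the fitted scale. No other gene of the set stood on opposite sides of SB at the 2 times with both differences past the threshold. Of the exon bases of DKK3, 47.5% overlap USP47 on the other strand, whose reads cannot be told apart there without strand. USP47 had normalized counts of 2814 and 2703 in SB, 3319 and 3023 at 3 days and 3132 and 3204 at 7 days.

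SFRP1, which binds WNT ligands directly, had normalized counts of 0 and 1 in SB, 0 and 1 at 3 days and 0 and 0 at 7 days. All values were below the 3 counts taken here as the limit of detection, so no fold was computed. SFRP1 was thus not detectable at this depth in any group.

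WNT5A, the ligand best known for signaling through ROR receptors and cell polarity, lies on chromosome 3 from 55499743 to 55524567 on the minus strand. It had normalized counts of 428 and 299 in SB, 920 and 953 at 3 days and 2594 and 2824 at 7 days. The groups did not overlap, and the SB libraries were the farthest apart for their level. From 363.5 ± 91.2 in SB, the mean rose 2.58-fold to 936.5 ± 23.3 after 3 days and 7.45-fold to 2709 ± 163 after 7 days (SD, n = 2). Log2 differences were 1.39 (standard error 0.15, limma adjusted p = 2.72e-05) at 3 days and 2.92 (adjusted p = 2.42e-08) at 7 days relative to SB. The step from 3 days to 7 days was 1.53 on the log2 scale (adjusted p = 3.91e-05).

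WNT5B, the closest relative of WNT5A, lies on chromosome 12 from 1639057 to 1756378 on the plus strand. No read was counted in either SB library (0 and 0), against 23 and 22 at 3 days and 145 and 128 at 7 days. It was the one gene of the set that went from no count to more than 100. Against a floor of 3 normalized counts per library, the mean was at least 7.5-fold higher than in SB at 3 days and at least 45.5-fold higher at 7 days. Because SB was at 0, the fitted log2 difference moved with the pseudocount and is not given as a size. Between 3 days and 7 days, both above the floor, the log2 difference was 2.55 (standard error 0.36, limma adjusted p = 0.000436), a ratio of 6.07.

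WNT9A, a ligand known from joint and skeletal development, lies on chromosome 1 from 228106357 to 228135633 on the minus strand. Its normalized count was 26 and 18 in SB, 59 and 115 at 3 days and 147 and 101 at 7 days. Both TGFβ groups were above SB, but they overlapped each other. Group means were 22 ± 5.66 in SB, 87 ± 39.6 at 3 days and 124 ± 32.5 at 7 days (SD, n = 2). The log2 difference from SB was 1.88 at 3 days (standard error 0.33, limma adjusted p = 0.0012) and 2.44 at 7 days (adjusted p = 7.61e-05). From 3 days to 7 days it was 0.56 (adjusted p = 0.218, 95% interval from -0.17 to 1.28), which did not pass the threshold.

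WNT7B, a ligand of the lung epithelium that can signal through β-catenin, was the 1 ligand of the set that was lower at 7 days than in SB. It lies on chromosome 22 from 46316246 to 46373042 on the minus strand. The normalized count was 1707 and 1742 in SB, 1257 and 1699 at 3 days and 1005 and 857 at 7 days. The 7-day libraries were the lowest, and one of the 3-day libraries stood close to SB and the other well below it. Group means were 1724 ± 24.8 in SB, 1478 ± 313 at 3 days and 931 ± 105 at 7 days (SD, n = 2). At 3 days the log2 difference from SB was -0.24 (standard error 0.14, limma adjusted p = 0.224, 95% interval from -0.54 to 0.06). Without the second 3-day library it was -0.46 (adjusted p = 0.0349), so this library decides the call. At 7 days WNT7B fell by 0.89 on the log2 scale relative to SB (adjusted p = 0.000204) and was lower than at 3 days, with a difference of -0.65 (adjusted p = 0.00431). The difference between 7 days and 3 days missed the threshold without the second 7-day library (-0.54, adjusted p = 0.0530) and with no filter on low values (adjusted p = 0.0534). WNT7A, its near relative on chromosome 3, had 0 and 0 in SB, 0 and 3 at 3 days and 1 and 1 at 7 days, which is at or under the floor in every library.

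**Figure D2:**
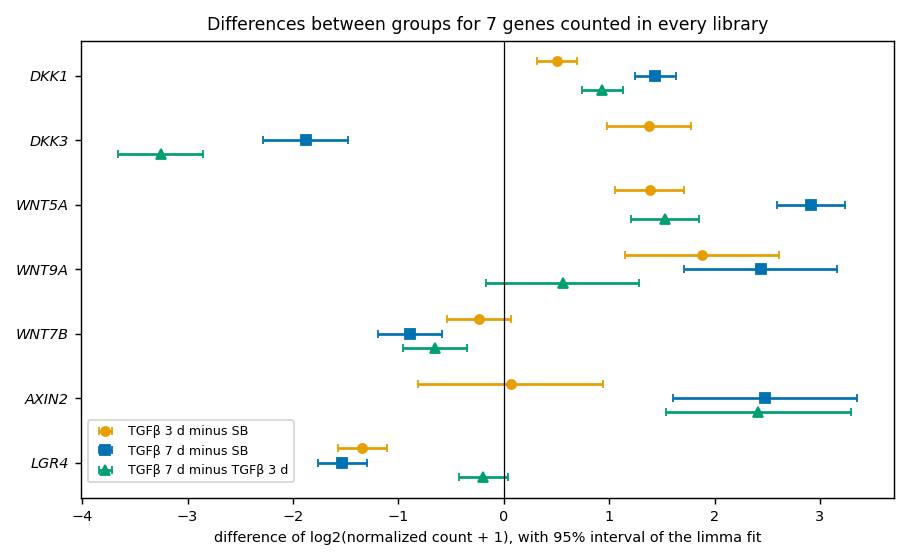
Difference of log2(normalized count + 1) (horizontal axis) for the 7 genes of the set with counts in every library, from the limma fit of 6 libraries. Circles are 3 days of TGFβ minus SB, squares 7 days minus SB and triangles 7 days minus 3 days, with 95% intervals as bars. DKK3 crosses from 1.38 to -1.88, and the intervals of AXIN2 and WNT7B at 3 days and of WNT9A and LGR4 between the 2 times of TGFβ hold 0.

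LGR4, a receptor for R-spondins that keeps Frizzled receptors at the cell surface, lies on chromosome 11 from 27387508 to 27494337 on the minus strand. Its normalized count was 3060 and 3520 in SB, 1368 and 1225 at 3 days and 1093 and 1174 at 7 days. The lower SB library was still far above the highest TGFβ library, and the TGFβ groups lay close together. Group means were 3290 ± 325 in SB, 1296 ± 101 at 3 days and 1134 ± 57.3 at 7 days (SD, n = 2). On the log2 scale LGR4 fell by 1.34 with 3 days of TGFβ (standard error 0.11, limma adjusted p = 2.16e-06), which is 2.53-fold, and by 1.53 with 7 days (adjusted p = 3e-07), which is 2.90-fold. Between 3 days and 7 days the difference was -0.19 (adjusted p = 0.187, 95% interval from -0.43 to 0.04), which did not pass the threshold.

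AXIN2, a scaffold of the β-catenin destruction complex and the most widely used transcriptional target of β-catenin, lies on chromosome 17 from 63524681 to 63557766 on the minus strand. Its normalized count was 8 and 18 in SB, 16 and 10 at 3 days and 76 and 68 at 7 days. SB and 3 days overlapped, and both 7-day libraries were above them. The means were 13 ± 7.07 in SB, 13 ± 4.24 at 3 days and 72 ± 5.66 at 7 days (SD, n = 2). At 3 days the log2 difference from SB was 0.06 (standard error 0.40, limma adjusted p = 0.923, 95% interval from -0.81 to 0.94), and its sign turned when the first SB library (-0.47) or the first 3-day library (-0.25) was left out. At 7 days AXIN2 was higher by 2.48 than in SB (adjusted p = 0.000279) and by 2.41 than at 3 days (adjusted p = 0.00115), a ratio of 5.54. In the annotation 25.3% of its exon bases are shared with a gene model on the same strand that has no row under its identifier in the table.

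Levels can be set beside each other between genes only per length, so the normalized count was divided by the kilobases of exon of each gene. These lengths take all annotated exons of a gene together, such as 11958 bases for DKK3 and 7153 for WNT5A, and not the transcript in use. The order of genes thus depends on the annotation as well. The lengths also include bases shared with other genes, 47.5% for DKK3 and 25.3% for AXIN2. Reads from such bases may not be counted for the gene, so the levels of DKK3 and AXIN2 per kilobase are less certain. Per kilobase, DKK1 had the highest level of the 10 genes in all 3 groups, at 701 in SB, 994 at 3 days and 1900 at 7 days. In SB it was followed by LGR4 at 518, WNT7B at 339 and WNT5A at 50.8, each apart from the next, and then by DKK3 at 11.7, WNT9A at 5.49 and AXIN2 at 2.5. At 3 days WNT7B stood second at 291, ahead of LGR4 at 204 and WNT5A at 131, while DKK3 at 30.8 overlapped WNT9A at 21.7. At 7 days WNT5A stood second at 379, ahead of WNT7B at 183 and LGR4 at 178, which overlapped each other. WNT5B at 32.2 overlapped WNT9A at 31.0 per kilobase at 7 days, and DKK3 at 3.14 was below AXIN2 at 13.8. WNT7B was thus the ligand of the set with the highest level per kilobase in SB and at 3 days, and WNT5A at 7 days.

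**Figure D3:**
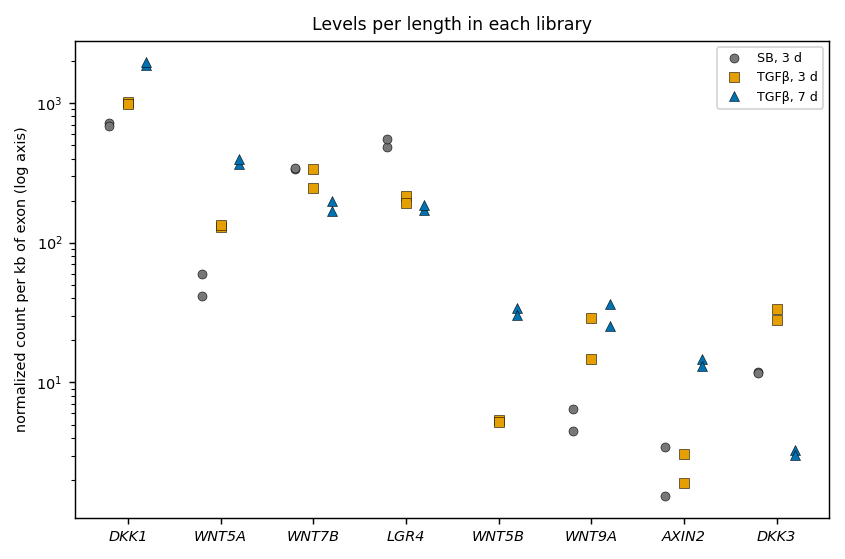
Normalized count per kilobase of exon (log axis) of the 8 genes that passed the filter, 1 marker per library, with circles for SB, squares for TGFβ at 3 days and triangles for TGFβ at 7 days. WNT5B has no marker in SB because it was at 0, WNT5A passes WNT7B only at 7 days, and DKK3 drops from above WNT9A in SB to the lowest of the 8 at 7 days. Lengths take all annotated exons of a gene together and include bases shared with other genes, most of all for DKK3.

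For DKK1 and DKK3, the genes with the most alike values were looked for among the 11389 genes whose mean was 100 or more, as the smallest distance over the 6 log2 values, each gene centred on its SB mean. For DKK1 they were ATXN7L1 (distance 0.12), HHAT (0.17) and KIAA1107 (0.17), each within 0.1 of its log2 differences from SB at both times. For DKK3 they were CTGF (1.09), F3 (1.13) and CYR61 (1.40). CTGF and CYR61 are matricellular genes known as YAP and TAZ targets, and F3 encodes tissue factor. The log2 difference from SB at 3 days was 0.84 for CTGF, 0.99 for F3 and 0.88 for CYR61, and at 7 days it was -1.49, -1.26 and -2.60. The nearest gene to DKK3 was thus farther from it than any of the 3 named was from DKK1. These distances are a description over 6 libraries that share the SB mean.

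The other genes of the pathway were counted by role from a list of 116 symbols, of which 111 were in the table and 74 were tested. Relative to SB, 17 of the 74 were higher and 10 lower at 3 days (36.5%, beside 29.0% of all genes tested), and 32 were higher and 15 lower at 7 days (63.5%, beside 54.5%). Between 7 days and 3 days 23 were higher and 7 lower (40.5%, beside 33.2%). The median log2 difference of the list was 0.02 at 3 days and 0.19 at 7 days relative to SB, beside -0.0215 and -8e-04 for all genes. The role lists were also chosen with earlier results of these data known, so the shares given here and below are a description and not a test. Where a role list had more than 2 genes past the threshold or a gene with a mean under 100 is named below, those beyond the rule on named genes were chosen after their values were seen.

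**Figure D4:**
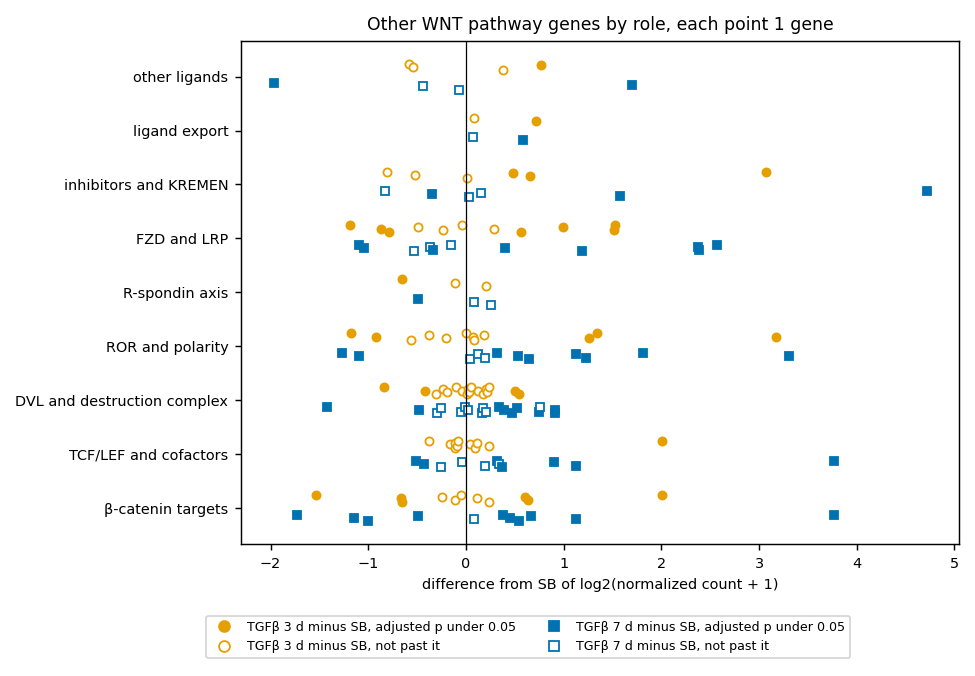
Difference from SB of log2(normalized count + 1) (horizontal axis) for the other tested pathway genes, in rows by role. Circles are 3 days of TGFβ and squares 7 days, filled where the limma adjusted p was under 0.05, and TCF7, LEF1, RNF43 and ZNRF3 stand both in their own row and in the target row. The points farthest to the right are DRAXIN among the inhibitors, at 4.72, and TCF7, at 3.76, both at 7 days, and most points of each row lie within 1 of 0.

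Among the 13 other WNT ligands in the table, 4 had a mean of at least 10. WNT2B was higher at both times, with normalized counts of 20 and 22 in SB, 35 and 38 at 3 days and 67 and 74 at 7 days (log2 differences from SB 0.77 and 1.70). WNT16 was lower at 7 days, at 22 and 13 in SB, 15 and 8 at 3 days and 6 and 2 at 7 days (-1.97 at 7 days). The canonical ligands WNT1 and WNT3A were not detectable, with WNT1 at 0 in all 6 libraries and WNT3A at 1 in a single library, and WNT3, at 94 to 182, did not pass the test in any comparison. Of the genes that prepare ligands for export, PORCN, which attaches their lipid, had 420 and 400 in SB, 610 and 750 at 3 days and 699 and 540 at 7 days. PORCN was higher than in SB by 0.72 at 3 days (limma adjusted p = 0.00377) and 0.58 at 7 days (adjusted p = 0.00634) on the log2 scale, the latter not without the first 7-day library (0.40, adjusted p = 0.0958). WLS, which carries ligands to the surface, had 5908 to 6475 and did not pass the test.

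Of 17 other secreted inhibitors and DKK receptors in the table, 6 were tested. At 3 days 3 were higher than in SB and 0 lower (50%, beside 29.0% of all genes tested). At 7 days 2 were higher and 1 lower (50%, beside 54.5%). DRAXIN, a secreted axon guidance protein that can also block WNT signaling, had normalized counts of 14 and 19 in SB, 122 and 172 at 3 days and 480 and 430 at 7 days. Its log2 difference from SB was 3.07 at 3 days (limma adjusted p = 1.34e-06) and 4.72 at 7 days (adjusted p = 1.66e-08), a larger ratio than that of DKK1 at a lower count. KREMEN1, the membrane receptor that takes DKK1-bound LRP6 off the surface, had 72 and 101 in SB, 113 and 160 at 3 days and 279 and 235 at 7 days. KREMEN1 was higher than in SB by 0.65 at 3 days (limma adjusted p = 0.0490) and by 1.57 at 7 days (adjusted p = 0.000113). At 3 days it missed the threshold without the first SB library (0.41, adjusted p = 0.241), the second 3-day library (0.40, adjusted p = 0.309) or either 7-day library (0.65, adjusted p = 0.0703). It also missed it with no filter on low values (adjusted p = 0.158), equal library totals (0.0868), the upper quartile (0.0618), no trend (0.114) and the 4 libraries of the comparison alone (0.0776). IGFBP4, a growth factor binding protein that can hold Frizzled receptors, had 5781 and 4743 in SB, 7178 and 7485 at 3 days and 4139 and 4111 at 7 days. Like DKK3, IGFBP4 was higher than in SB at 3 days (0.49, adjusted p = 0.00305) and lower at 7 days (-0.34, adjusted p = 0.0110). The difference at 7 days missed the threshold without the first SB library (-0.20, adjusted p = 0.0771), the first 7-day library (-0.35, adjusted p = 0.0551) or the second (-0.34, adjusted p = 0.0649). The inhibitors WIF1, DKK4, SFRP5 and SOST did not pass 1 in any library and DKK2 did not pass 11.

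Of the 12 Frizzled and LRP receptors with a row, 11 were tested, and they moved in both directions. At 3 days FZD1, FZD2, FZD7 and LRP4 were higher and FZD5, LRP5 and LRP6 lower than in SB. At 7 days FZD6 joined the higher genes and FZD4 the lower ones, while LRP5 missed the threshold. The shares past it were 63.6% at 3 days and 72.7% at 7 days, beside 29.0% and 54.5% of all genes. FZD1 had 90 and 98 in SB, 179 and 197 at 3 days and 530 and 593 at 7 days, a log2 difference from SB of 0.99 (limma adjusted p = 0.000511) and 2.56 (adjusted p = 9.47e-08). FZD2 had 66 and 93, then 188 and 270, then 426 and 403, a log2 difference of 1.51 (adjusted p = 0.000226) and 2.39 (adjusted p = 2.56e-06). FZD7, a receptor often found in progenitor cells, had 155 and 138 in SB, 206 and 227 at 3 days and 339 and 331 at 7 days. These 3 Frizzled genes were lowest in SB and highest at 7 days, with no overlap between groups. Of all genes tested, 63.2% did not overlap between SB and 3 days, 77.5% between SB and 7 days and 69.1% between the 2 times. FZD6, with the highest counts of the Frizzled genes, had 5730 and 5384 in SB, 5683 and 5098 at 3 days and 7030 and 7646 at 7 days. Its log2 difference from SB at 7 days was 0.40. FZD5 had 309 and 319 in SB, 180 and 164 at 3 days and 165 and 129 at 7 days. The FZD7 difference at 3 days (0.56, adjusted p = 0.0168) missed the threshold without the second SB library (0.48, adjusted p = 0.0594) or the second 3-day library (0.49, adjusted p = 0.111). LRP4, a relative of the WNT co-receptors best known at the nerve-muscle contact, had 354 and 339, then 976 and 1025, then 1876 and 1724 (log2 differences 1.53 and 2.37). LRP6, the co-receptor that DKK1 blocks, had 5700 and 7580 in SB, 3079 and 2712 at 3 days and 3134 and 3245 at 7 days. LRP6 fell by 1.19 (log2) at 3 days (adjusted p = 2.09e-05) and by 1.04 at 7 days (adjusted p = 2.57e-05).

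The R-spondin axis offers the context of LGR4, since R-spondins bind LGR receptors to hold back the ligases RNF43 and ZNRF3, which remove Frizzled receptors. RSPO1, RSPO2 and RSPO3 did not pass 2 normalized counts, LGR5 did not pass 4 and LGR6 did not pass 5. RSPO4 had 164 to 237 over the 6 libraries and was not past the threshold in any comparison. LGR4 was thus the LGR receptor with counts above 5 in these cells. RNF43 had 609 and 671 in SB, 377 and 439 at 3 days and 463 and 449 at 7 days. Its log2 difference from SB was -0.65 at 3 days (limma adjusted p = 0.00265) and -0.49 at 7 days (adjusted p = 0.00724), the latter not without the second 7-day library (-0.46, adjusted p = 0.0552), while ZNRF3, at 319 to 434, did not pass the test.

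**Figure D5:**
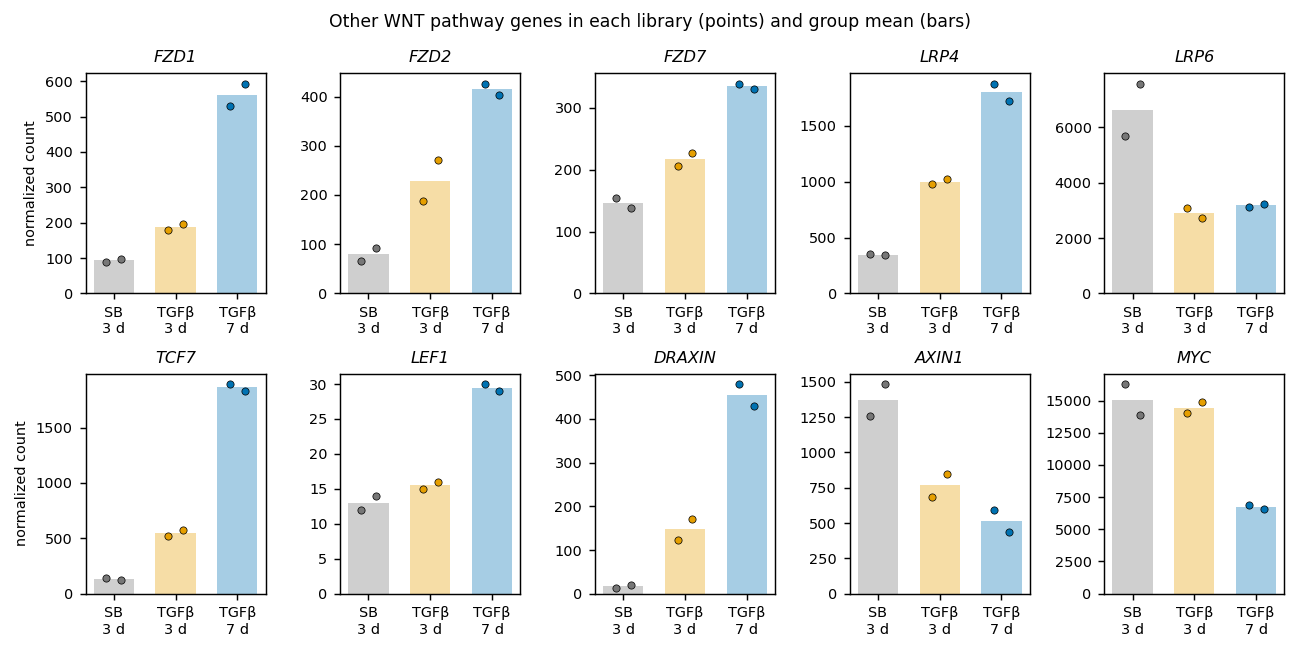
Normalized count (vertical axis, from 0, a scale of its own for each gene) of 10 receptors, nuclear factors and other genes of the pathway in the 3 groups. Points are the 2 libraries of a group and bars their mean. FZD1, FZD2, LRP4, TCF7 and DRAXIN step up from group to group, LRP6 and AXIN1 are highest in SB, and MYC is lower at 7 days alone.

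Receptors and polarity genes on the branch that WNT5A is known for were tested for 12 of 14. At 3 days CELSR1, DAAM1 and VANGL2 were higher than in SB and ROR1 and PRICKLE1 lower. These 5 of 12 are 41.7%, beside 29.0% of all genes tested. At 7 days 7 were higher and the same pair was lower, 75% beside 54.5% of all genes. CELSR1, a cadherin of planar cell polarity, had 808 and 915 in SB, 1810 and 2328 at 3 days and 3258 and 2803 at 7 days (log2 differences from SB of 1.25 and 1.81). Its relative CELSR3 had 923 and 1326 in SB, 985 and 1251 at 3 days and 1815 and 1642 at 7 days, higher at 7 days by 0.64 (limma adjusted p = 0.00564) but not past the threshold without the first SB library (0.38, adjusted p = 0.0621), with no filter (adjusted p = 0.0611) or with no trend (0.0515). DAAM1, a formin that links Dishevelled to actin, had 525 and 414, then 1260 and 1108, then 973 and 1074 (1.34 and 1.13). VANGL2, a polarity membrane protein, had 3 and 1 in SB, 23 and 26 at 3 days and 25 and 29 at 7 days, and like WNT5B it passed the filter through the TGFβ libraries alone and so had to differ from SB. ROR1, a receptor for WNT5A, had 3636 and 3119 in SB, 1875 and 1690 at 3 days and 1361 and 1425 at 7 days, a log2 difference of -0.92 (adjusted p = 4.16e-05) and -1.27 (adjusted p = 1.24e-06). ROR2 was at 0 in all 6 libraries. WNT5A mRNA was higher and the mRNA of its receptor ROR1 lower in the same TGFβ libraries.

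In the cytoplasm, 4 of 18 tested genes of the Dishevelled and destruction complex list differed from SB at 3 days, with DVL1 and GSK3B higher and AXIN1 and CSNK1E lower (22.2%, beside 29.0% of all genes). At 7 days 7 were higher and 2, again AXIN1 and CSNK1E, lower (50%, beside 54.5%), so at neither time was the share above that of all genes. AXIN1, the constitutive counterpart of AXIN2, had 1255 and 1485 in SB, 686 and 849 at 3 days and 594 and 438 at 7 days. The log2 difference of AXIN1 from SB was -0.84 (limma adjusted p = 0.00206) and -1.42 (adjusted p = 1.81e-05), opposite in sign to that of AXIN2 at 7 days. DVL3, a Dishevelled protein that passes the signal on from Frizzled, had 5006 and 5451 in SB, 5847 and 6507 at 3 days and 9967 and 9690 at 7 days, higher at 7 days by 0.91 (adjusted p = 4.64e-06). DVL1 had 1627 and 1440, then 1836 and 2712, then 2472 and 1819, with log2 differences of 0.54 (adjusted p = 0.0371) and 0.47 (adjusted p = 0.0400). Both DVL1 differences missed the threshold without either SB library (adjusted p from 0.0734 to 0.19), and with no filter, no trend, equal library totals or the upper quartile (adjusted p from 0.0513 to 0.188). The 3-day difference also missed it without the second 3-day library (0.26, adjusted p = 0.288), and the 7-day difference without the first 7-day library (0.25, adjusted p = 0.325). CTNNB1, which encodes β-catenin, had 20035 and 26079 in SB, 20107 and 18812 at 3 days and 25150 and 26372 at 7 days. Between 7 days and 3 days its log2 difference was 0.41 (limma adjusted p = 0.0158). That difference missed the threshold with no filter (limma adjusted p = 0.0995) and with no trend (0.0998). With each library left out it ranged from 0.36 to 0.45. CTNNB1 did not pass the threshold against SB at either time, but its SB libraries were far apart, and it did at 3 days without the first of them (-0.42, adjusted p = 0.00482) and at 7 days without the second (0.36, adjusted p = 0.00498).

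Of 11 tested nuclear factors, 1 differed from SB at 3 days and 7 at 7 days, with TCF7, LEF1, BCL9, PYGO1 and TLE3 higher and TCF7L2 and TLE1 lower. These shares are 9.09% at 3 days, beside 29.0% of all genes, and 63.6% at 7 days, beside 54.5%. TCF7, a DNA-binding partner of β-catenin, had 145 and 128 in SB, 521 and 578 at 3 days and 1894 and 1835 at 7 days. The log2 difference of TCF7 from SB was 2.0 (limma adjusted p = 3.11e-07) and 3.76 (adjusted p = 7.14e-10), a ratio of 4.03 at 3 days and 13.7 at 7 days. LEF1 of the same family was near the filter, at 12 and 14, then 15 and 16, then 30 and 29, and was higher at 7 days by 1.13 (limma adjusted p = 0.0126), not past the threshold without the first (1.10, adjusted p = 0.0699) or the second 7-day library (1.15, adjusted p = 0.0608). BCL9, a co-activator that binds β-catenin, had 724 and 1097 in SB, 945 and 981 at 3 days and 1783 and 1555 at 7 days, a log2 difference of 0.90 at 7 days (adjusted p = 0.000617). At 3 days BCL9 had a difference of 0.11, which passed the threshold without the second SB library (0.41, adjusted p = 0.0365).

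Of 18 other β-catenin targets with a row, 11 were tested. At 3 days TCF7, CCND1 and CD44 were higher than in SB and BMP4, SOX9 and RNF43 lower. At 7 days 6 were higher and MYC, BMP4, TNFRSF19 and RNF43 were lower. The shares were 54.5% at 3 days and 90.9% at 7 days, beside 29.0% and 54.5% of all genes. The feedback targets NKD1 and NOTUM stayed below the filter, with NKD1 at 1 and 2 in SB, 5 and 3 at 3 days and 9 and 10 at 7 days. NOTUM, an enzyme that strips the lipid from WNT proteins, had 1 in each SB and 3-day library and 8 and 6 at 7 days. MYC had 16285 and 13846 in SB, 14016 and 14898 at 3 days and 6907 and 6614 at 7 days. Relative to SB, MYC fell by 1.15 (log2) at 7 days (limma adjusted p = 9.91e-07), while at 3 days the difference was -0.06 (adjusted p = 0.691). BMP4 had 238 and 246 in SB, 83 and 83 at 3 days and 66 and 79 at 7 days (log2 differences from SB -1.53 and -1.73). SOX9, a progenitor transcription factor, had 1835 and 2305 in SB, 1233 and 1365 at 3 days and 2591 and 2769 at 7 days. SOX9 had a log2 difference from SB of -0.66 at 3 days (limma adjusted p = 0.00118) and of 0.38 at 7 days (adjusted p = 0.0159). The latter missed the threshold without the first SB library (0.22, adjusted p = 0.129) or the second 7-day library (0.33, adjusted p = 0.112). At 7 days the targets, AXIN2 included, thus lay on both sides of SB.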

How the data were processed

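H2087-LCC libraries were compared in 3 groups of 2. The authors prepared poly(A) RNA with a kit that does not mark strand, checked reads with FastQC 0.11.5, mapped them with STAR to hg19, counted genes with HTSeq 0.6.1p1 and normalized by library size with DESeq2 (version 3.4 in the submitters' processing notes). The deposited values, recorded under the unit score, are these normalized counts, all whole, with 21293 genes, 1316 of them at 0 throughout, and 27 rows carry a date or number in place of a symbol. They are not reads, so a count model was not used.

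Values were analysed as log2(value + 1) in limma 3.58.1 (R 4.3.3, empirical Bayes with a trend, group as the only term, 3 residual degrees of freedom) for genes whose mean reached 10, and the steps were tested on simulated data. Counting error is set by the estimated 3.2e+07 to 4e+07 assigned reads per library. Within groups the variance was 7.35 to 11.0 times that of counting, as a median over genes with a mean of at least 100. It does not describe genes with lower counts. The 10 genes and the role lists were chosen with earlier results of these data known. Each role list names, per comparison, the 2 genes with the largest log2 difference among those past 0.05 with a mean of at least 100; for the 8 of the 10 genes that were tested the 3 nearest genes were computed, and those of DKK1 and DKK3 are named. Exon lengths and overlaps come from GENCODE on GRCh37. Alternatives were other pseudocounts, filters and scalings, no trend, a fit of 2 groups at a time, a block for the replicate number and each library left out. No label says that equal replicate numbers share a culture. Figures used Python 3.11.15 and matplotlib 3.10.9.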

Additional observations from a re-analysis of the deposited data

Results flagged for a closer look

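For 3 genes of the set and the role lists, the difference from SB was past the threshold both at 3 days and at 7 days, with opposite signs, and the difference between the 2 times was past it as well (limma, Benjamini-Hochberg adjustment over 14395 genes, 2 libraries per group). DKK3 stood above SB first and below it later, with a log2 difference between the 2 times of -3.26 (adjusted p = 1.07e-06). IGFBP4 moved in the same directions, with a difference of -0.83 (adjusted p = 0.000139), and its position below SB at 7 days (-0.34, adjusted p = 0.0110) was lost without the trend and without the first SB library or either 7-day library. SOX9 stood below SB first and above it later, with a difference of 1.05 (adjusted p = 9.31e-05), and its position above SB at 7 days (0.38, adjusted p = 0.0159) was lost with no filter, without the trend and without the first SB or the second 7-day library. Both comparisons with SB share the same 2 SB libraries.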

How the results depend on the processing

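The number of the 10 genes past the threshold stayed between 6 and 7 at 3 days relative to SB, between 7 and 8 at 7 days and between 5 and 6 between the 2 times. Over all genes, 4775 differed between 7 days and 3 days, against 3042 with no filter on low values and 3122 without the trend, and leaving out each library in turn gave 2294 to 5570. At 3 days relative to SB 4170 genes differed, and 2608 to 3894 with a library left out, the fewest without the first 3-day library. A group left with 1 library was assumed to vary like the others. Of the log2 differences of the 8 tested genes under alternatives other than a left-out library, 236 kept their sign and side of the threshold, none turned and 1 missed it. Several of these settings, such as no filter or no trend, leave the difference itself unchanged and move only its p, and WNT5B had to differ from SB. With a library left out, 2 of the differences turned.

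Signs turned where the difference was near 0. With each library left out, AXIN2 at 3 days ranged from -0.47 to 0.60 relative to SB, CELSR3 from -0.26 to 0.27, BCL9 from -0.19 to 0.41 and MYC from -0.17 to 0.062, CTNNB1 at 7 days from -0.018 to 0.36, and, between 7 days and 3 days, PORCN from -0.32 to 0.047 and DVL1 from -0.35 to 0.21. With libraries scaled to equal totals CELSR3 at 3 days was -0.051, and -0.0045 with the upper quartile. The cause was not tested, other than that these settings change the scale or use fewer libraries. AXIN2 has no value with a mean of at least 50.

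The correlation of the deviations of equal replicate numbers was 0.14 between SB and 3 days, -0.10 between SB and 7 days and -0.29 between 3 days and 7 days. A negative value means that unlike numbers deviated alike. Replicate numbers need not match between groups, so these values cannot decide whether libraries were paired. With the replicate number as a block, 6, 8 and 6 of the 10 genes and 3943, 7546 and 4485 of all genes were past the threshold at 3 days, at 7 days and between them. Depth limits SFRP1 and WNT7A, and WNT5B in SB, to at most 3 normalized counts per library.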
